A study of Mus musculus with 4 samples.

Results

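Keratins are the intermediate filament proteins of epithelial cells, and 9 of their genes were read here in RNA of cells sorted as prostate stroma: Krt5, Krt14 and Krt15 of basal epithelium, Krt7, Krt8, Krt18 and Krt19 of simple epithelium, and Krt4 and Krt13 of the urethral lining. They were chosen by name, out of 25563 genes to which the deposited transcripts could be assigned. The cells came from adult C57BL/6 mice and were sorted as Sca-1 positive cells without CD24, CD49f or lineage markers on their surface. The groups were 2 libraries from proximal prostatic ducts, next to the urethra, and 2 libraries from distal ducts, away from it. Each region has a library numbered 2 and a library numbered 3, called proximal 2, proximal 3, distal 2 and distal 3. The labels name no genotype beyond the strain, no treatment and no exact age, and do not say whether animals were pooled or what a number marks. P-values therefore rest on how far the libraries differ among themselves, and that spread may be technical alone.

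A keratin filament is built from equal parts of a type I (acidic) and a type II (basic to neutral) protein, and the pair in use is characteristic of the epithelium. KRT5 with KRT14 marks the basal layer of stratified and pseudostratified epithelia, KRT8 with KRT18 marks simple epithelia such as the luminal cells of the prostate, and KRT4 with KRT13 marks stratified epithelia that do not cornify. KRT15 is a further type I keratin of basal cells, KRT19 a short type I keratin of ducts and simple epithelia, and KRT7 a type II keratin of ducts and urothelium. Fibroblasts carry vimentin in place of keratins.

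Type I genes Krt13, Krt14, Krt15 and Krt19 lie together on chromosome 11 of mm10, and the type II genes lie on chromosome 15 together with Krt18. Krt8 (ENSMUSG00000049382.10) occupies 101996698 to 102004482 on the minus strand and Krt18 (ENSMUSG00000023043.7) follows at 102028180 to 102032027 on the plus strand. Krt7 (ENSMUSG00000023039.17) lies at 101411043 to 101430313 on the plus strand and Krt4 (ENSMUSG00000059668.6) at 101918535 to 101924735 on the minus strand. On chromosome 11, all on the minus strand, Krt15 (ENSMUSG00000054146.8) lies at 100131758 to 100135928, Krt19 (ENSMUSG00000020911.14) at 100140810 to 100148665, Krt14 (ENSMUSG00000045545.8) at 100203162 to 100207548 and Krt13 (ENSMUSG00000044041.4) at 100117327 to 100121566. Krt5 (ENSMUSG00000061527.7) lies on chromosome 15 at 101707070 to 101712898 on the minus strand.

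The genes are alike enough in places that short reads cannot always be told apart, which bears on how their levels were divided. The most similar 60-base coding window of the type I members is shown, with bases that differ from Krt14 in capitals. All are in exon 1, 5′ to 3′, from the GENCODE M21 transcripts of mm10, that of Krt14 at chr11:100207027-100207086 (minus). Krt16 and Krt17, relatives of Krt14 outside the 9 genes, are added.
Krt14: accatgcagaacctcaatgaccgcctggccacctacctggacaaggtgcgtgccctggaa
Krt15: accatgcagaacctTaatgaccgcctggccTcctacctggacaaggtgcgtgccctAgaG
Krt13: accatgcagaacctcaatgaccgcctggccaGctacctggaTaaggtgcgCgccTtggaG
Krt19: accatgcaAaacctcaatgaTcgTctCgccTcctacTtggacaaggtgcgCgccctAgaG
Krt18: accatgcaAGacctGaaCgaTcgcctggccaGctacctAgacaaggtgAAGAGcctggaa
Krt16: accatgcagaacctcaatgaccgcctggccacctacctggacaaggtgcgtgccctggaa
Krt17: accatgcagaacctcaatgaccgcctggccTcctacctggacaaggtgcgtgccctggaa

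Over these 60 bases Krt16 was identical to Krt14 and Krt17 differed at 1 base, against 4 bases for Krt15, 5 for Krt13, 9 for Krt19 and 12 for Krt18.

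Of all stretches of 50 bases in the annotated transcript, 26.93% of those of Krt8 also occurred in another gene, in each case the pseudogene Krt8-ps. The share was 14.37% for Krt14 (with Krt16 and Krt17) and 8.52% for Krt5 (mostly with Krt6a). It was 0.72% for Krt18, 0.67% for Krt15 and 0 for Krt4, Krt7, Krt13 and Krt19. The levels of Krt8, Krt14 and Krt5 are therefore the less certain ones, since the quantification could divide shared reads in more than 1 way. The 50-base stretch is a yardstick only, since no source used here gives the read length.

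Levels were highest in proximal 3 for all 9 genes. The unit, FPKM, divides the fragments of a transcript by its length and by the library total, which allows levels to be set side by side between genes. Summed over the 9 genes, 68.1 FPKM was present in proximal 2 and 449 FPKM in proximal 3, against 32.7 FPKM in distal 2 and 89.3 FPKM in distal 3. Krt19 was the most abundant by its mean over the libraries (50.2 FPKM), followed by Krt15 (30.5 FPKM), Krt18 (27.2 FPKM), Krt8 (23.3 FPKM), Krt14 (13.0 FPKM), Krt7 (9.95 FPKM), Krt4 (3.09 FPKM), Krt5 (2.13 FPKM) and Krt13 (0.290 FPKM). The ranges over the 4 libraries overlapped for every pair of neighbours in this order. For comparison, vimentin (Vim) stood at 245 and 495 FPKM in proximal libraries and at 367 and 410 FPKM in distal libraries.

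**Figure D1:**
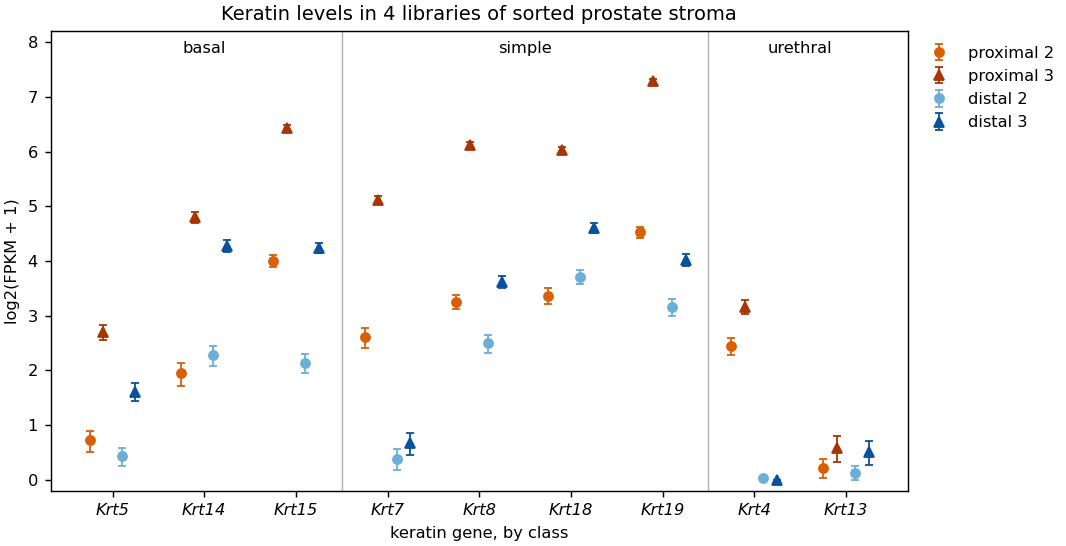
Level of each keratin, as log2(FPKM + 1), in proximal 2, proximal 3, distal 2 and distal 3, grouped by class; bars are the deposited lower and upper bounds of each estimate, which cover error within a library only. Proximal 3 is the highest library for every gene, and Krt4 and Krt7 are near 0 in both distal libraries.

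The regional comparison asks which of these genes differ between proximal and distal cells. None of the 9 passed it: 8 entered the test and 0 were called (limma, Benjamini-Hochberg adjustment over 11212 genes). Over all genes 0% were called in either direction (0.0% higher, 0.0% lower), with 354 genes at an unadjusted p under 0.05. With 2 libraries a region, 0.333 is the smallest two-sided p of an exact permutation test. Log2 differences below are on the log2(FPKM + 1) scale, which understates the change of low genes.

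The urethral pair split. Krt4 stood at 4.41 FPKM in proximal 2 and 7.95 FPKM in proximal 3, against 0.0169 FPKM in distal 2 and a listed 0 in distal 3. Both proximal libraries lay far above both distal ones, with no overlap. The log2 difference was 2.79 ± 0.44 (SE), with an unadjusted p of 0.00116 and an adjusted p of 0.520 (limma). It was 5.80 with a pseudocount of 0.1 FPKM in place of 1. Krt13, the usual partner of Krt4, stood at 0.160 and 0.493 FPKM in proximal libraries and at 0.0879 and 0.419 FPKM in distal libraries. These groups overlapped and stayed under the minimum of 1 FPKM in 2 libraries, so Krt13 was not tested. Its mean read depth over the transcript did not exceed 2.31 in any library, so its values are imprecise. The deposited bounds of its proximal and distal libraries overlapped within both numbers.

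Of the simple epithelial genes, Krt7 and Krt19 had higher values in both proximal libraries, while Krt8 and Krt18 overlapped between regions. Krt7 reached 5.07 FPKM in proximal 2 and 33.8 in proximal 3, against 0.307 in distal 2 and 0.590 in distal 3 (FPKM). The log2 difference was 3.33 ± 0.88 (SE), with an unadjusted p of 0.0116 and an adjusted p of 0.954 (limma). It was 2.07 without proximal replicate 3 and 4.64 with a pseudocount of 0.1 FPKM, where that of Krt4 was larger. Krt7 and Krt4 were the 2 members at an unadjusted p under 0.05, where 2.26% of all tested genes reached that level with higher proximal values. Both passed the filter on low values through their proximal libraries alone, so they had to differ to be tested.

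Krt19 reached 22.0 FPKM in proximal 2 and 156 in proximal 3, against 7.93 in distal 2 and 15.2 in distal 3 (FPKM). Its log2 difference was 2.32 ± 0.95 (SE, adjusted p = 0.99991, limma), which was 0.94 without proximal replicate 3 and 3.71 without proximal replicate 2. Neither proximal value overlapped the distal range. This was so for 3 of the 8 tested members (Krt4, Krt7 and Krt19) and for 12.9% of tested genes. For Krt4 and Krt7 the filter fixed this outcome, so the count adds nothing to their single values. In both proximal libraries 0 of the 8 lay below the distal range (8.67% of tested genes).

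Krt8 stood at 8.55 and 68.8 FPKM (proximal 2 and 3), against 4.63 and 11.3 FPKM (distal 2 and 3), a log2 difference of 1.63 ± 1.01 (SE). Its partner Krt18 stood at 9.32 and 64.0 FPKM (proximal 2 and 3), against 12.1 and 23.3 FPKM (distal 2 and 3), a log2 difference of 0.54 ± 0.92 (SE). In both genes proximal 2 lay below distal 3, and neither passed (adjusted p = 0.99991 for both, limma). Without proximal replicate 2 the difference was 3.07 for Krt8 and 1.87 for Krt18. Without proximal replicate 3 it was 0.20 for Krt8 and -0.79 for Krt18, so proximal 3 set the direction of Krt18.

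All 3 basal genes had a log2 difference above 0 (60.3% of tested genes), but those of Krt5 and Krt14 changed sign in at least 1 alternative fit. Krt15 stood at 15.0 and 85.7 FPKM (proximal 2 and 3), against 3.40 and 18.0 FPKM (distal 2 and 3), a log2 difference of 2.03 ± 1.05 (SE). Proximal 2 lay just below distal 3, so the regions overlapped, although proximal was higher within both numbers (by 1.87 and 2.19 on the log2 scale). With 1 library left out the difference of Krt15 ran between 0.81, without proximal replicate 3, and 3.25, without proximal replicate 2. Krt14 stood at 2.85 and 26.8 FPKM (proximal 2 and 3), against 3.83 and 18.4 FPKM (distal 2 and 3), a log2 difference of 0.09 ± 1.14 (SE). Its difference was -0.33 within number 2 and 0.52 within number 3, and it was -0.06 under quantile normalization and -0.04 under median ratio scaling. It was -1.33 without proximal replicate 3 and -0.91 without distal replicate 2. Krt5 stood at 0.646 and 5.48 FPKM (proximal 2 and 3), against 0.346 and 2.04 FPKM (distal 2 and 3), a log2 difference of 0.69 ± 0.80 (SE), which was -0.30 without proximal replicate 3. None of the 3 basal genes passed (adjusted p = 0.99991 each, limma).

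**Figure D2:**
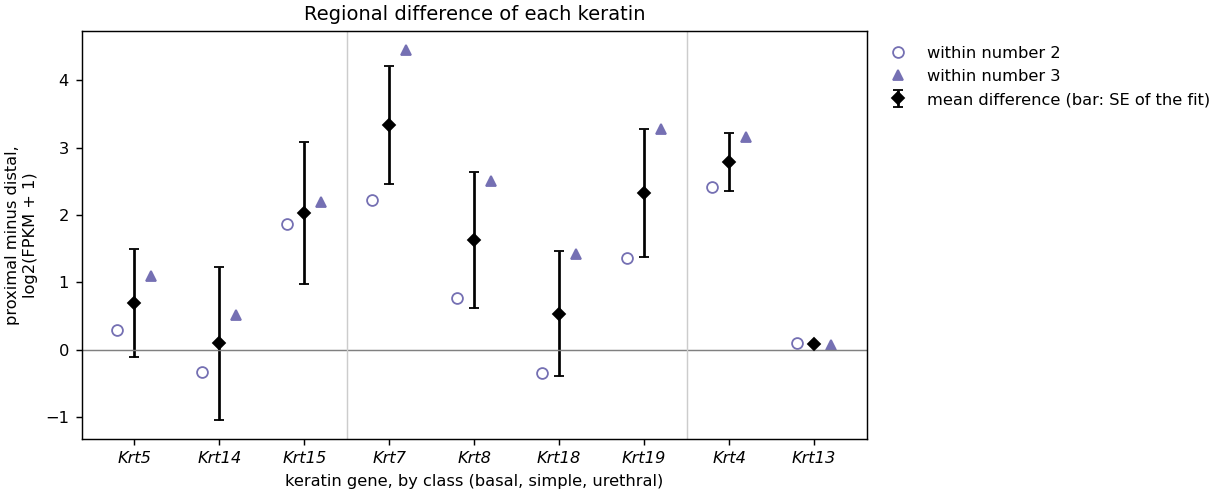
Proximal minus distal difference of each keratin on the log2(FPKM + 1) scale; diamonds are the mean difference with the SE of the limma fit (Krt13 was not tested and has no SE), open circles the difference within number 2 and filled triangles within number 3. Krt14 and Krt18 lie on opposite sides of 0 in the 2 numbers, while Krt4, Krt7, Krt15 and Krt19 lie more than 1 log2 unit above 0 in both.

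Within numbers, proximal exceeded distal in both for 6 of the 8 tested members (42.9% of tested genes), the exceptions being Krt14 and Krt18. Krt4 and Krt7 had to do so to be tested. The untested Krt13 did so too, but its deposited bounds overlapped in both numbers, as did those of Krt5 in number 2. These comparisons set 1 library against 1 library and carry no test. With library number as a further term in the fit, 4 of the 8 tested members were called higher in proximal (Krt4, Krt7, Krt15 and Krt19). Of tested genes 2.71% were. Deviations of same-numbered libraries from their region means correlated across genes (r = 0.815). No label says what a number marks, so this fit stays an alternative. Krt4 and Krt7 had passed the filter through proximal libraries alone. The deposited bounds of proximal and distal libraries were apart, proximal above, in both numbers for Krt4, Krt7, Krt8, Krt15 and Krt19. For Krt18 they were apart in opposite directions, proximal below distal in number 2 and above it in number 3. For member values of at least 1 FPKM the half-width of the bounds was 2.75% to 19.2% of the value. Below that level the bounds are wide, and those of the 2 libraries of a region overlapped for Krt7 in distal and for Krt13 in proximal libraries.

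The libraries also differed by number. Number 3 exceeded number 2 in both regions for 7 of the 8 tested members, the exception being Krt4, whose distal values were at or near 0. This held for 25.5% of tested genes, and also for the untested Krt13. Over all tested genes the median log2 difference of number 3 minus number 2 was -0.36 in proximal and -0.31 in distal libraries, so the keratins went against the general trend. The simple and the basal genes had like ratios within their class in distal libraries. In distal libraries number 3 over number 2 was 1.92 for Krt7, 1.92 for Krt18, 1.91 for Krt19 and 2.45 for Krt8, while the basal genes had ratios of 5.92 for Krt5, 4.81 for Krt14 and 5.28 for Krt15. In proximal libraries the simple genes had ratios of 6.67 (Krt7), 6.87 (Krt18), 7.06 (Krt19) and 8.04 (Krt8), the basal genes 8.49 (Krt5), 9.41 (Krt14) and 5.69 (Krt15), and Krt4 had the smallest ratio. A single library stands behind each side of these ratios.

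Because levels swung together with number, each gene was also set relative to Krt18 or to Epcam, an adhesion molecule of epithelial cells, within the same library, where any scaling of the library cancels. These ratios were chosen after the values were seen and carry no test. Krt7 per Krt18 was 0.544 and 0.528 in proximal 2 and proximal 3, against 0.0253 and 0.0253 in distal 2 and distal 3. Krt19 per Krt18 was 2.37 and 2.43 in proximal libraries, against 0.655 and 0.651 in distal libraries. The ratios were thus apart between regions for both genes, by 3.68-fold for Krt19. The distal values of Krt7 are low, with deposited bounds of 0.137 to 0.477 FPKM in distal 2 and 0.367 to 0.813 FPKM in distal 3, so the equal distal ratios of Krt7 are closer than its error allows to be read.

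Krt8 per Krt18 was 0.918 and 1.07 in proximal libraries, against 0.382 and 0.486 in distal libraries. Krt15 per Krt18 was 1.62 and 1.34 in proximal libraries, against 0.281 and 0.771 in distal libraries. Krt14 per Krt18 was 0.306 and 0.418 in proximal libraries and 0.316 and 0.791 in distal libraries, and so overlapped, as did Krt5 and Krt13. In all, 5 of 8 ratios to Krt18 were higher in both proximal libraries (Krt4, Krt7, Krt8, Krt15 and Krt19) and 0 lower. Of all tested genes 1.42% had a ratio to Krt18 that was higher in both proximal libraries and 4.37% one that was lower. Krt18 was higher in number 3 in both regions and most tested genes were not, so the shares are not like for like. Krt4 and Krt7 also passed the filter through proximal libraries alone.

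Relative to Epcam the same 5 genes were higher in both proximal libraries (0.901% of tested genes), and Krt14 and Krt18 were lower (10.3% of tested genes). The limit that the filter sets on Krt4 and Krt7 holds here too. Epcam, like Krt18, was higher in number 3 in both regions and most tested genes were not, so these shares are not like for like either. Krt18 per Epcam was 2.40 and 2.13 in proximal libraries, against 4.07 and 3.15 in distal libraries, and Krt14 per Epcam was 0.732 and 0.889 against 1.29 and 2.49. In sorted bulk RNA, fewer cells of a type and less RNA per cell cannot be told apart.

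**Figure D3:**
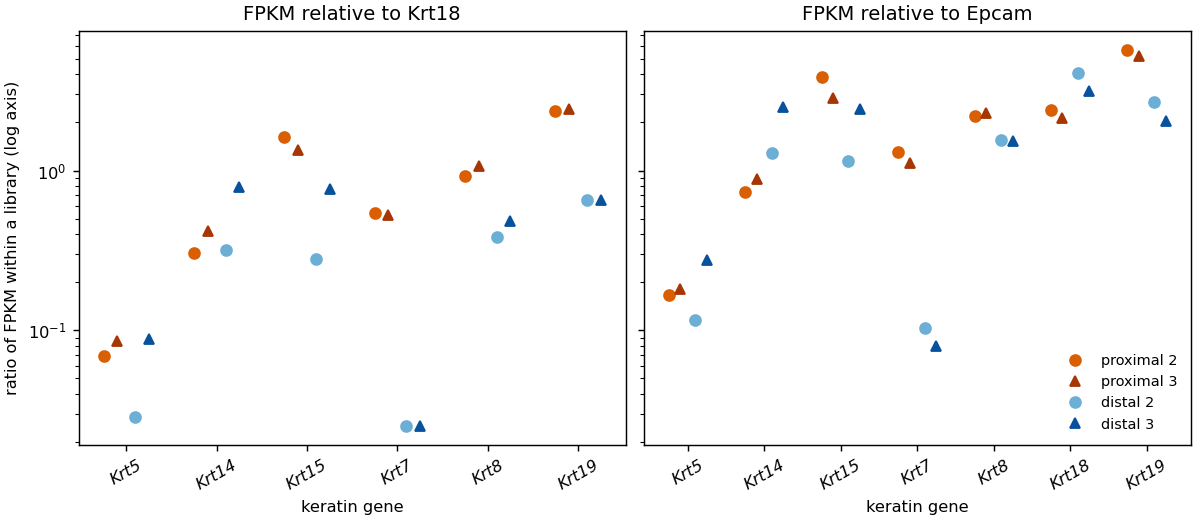
FPKM of each keratin divided by that of Krt18 (left) or Epcam (right) in the same library, on a log axis; Krt4 and Krt13 are left out because of values at or near 0. Krt7 and Krt19 per Krt18 lie apart between regions, while Krt14 and Krt5 per Krt18 overlap.

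As shares of the summed FPKM of the 9 genes, Krt18 made up 13.7% and 14.3% in proximal 2 and proximal 3, against 37.1% and 26.1% in distal 2 and distal 3. Krt7 made up 7.45% and 7.53% in proximal libraries, against 0.939% and 0.661% in distal libraries. The basal class held 27.2% and 26.3% in proximal libraries, against 23.2% and 43.1% in distal libraries, and so overlapped. Type I genes exceeded type II genes everywhere, by 2.65 and 2.87 times in proximal libraries and 5.17 and 5.39 times in distal libraries. The pairs were also uneven: Krt14 was 4.41 and 4.89 times Krt5 in proximal libraries and 11.1 and 9.02 times Krt5 in distal libraries.

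The promoters of 3 simple epithelial genes are shown because Krt7 did not overlap between regions while Krt18 did, and Krt8 lies beside Krt18. They run from 250 bases before to 50 bases after the RefSeq gene start (GRCm38.p6, which is mm10), 5′ to 3′ on the gene's strand: chr15:101412153-101412452 (plus) for Krt7, chr15:102004293-102004592 (minus) for Krt8 and chr15:102027966-102028265 (plus) for Krt18. The motifs searched, on both strands, were the TATA box, spelled TATAAA, and the GC box, which is read as GGGCGG. The AP-1 site was searched as TGANTCA, in which N is any base. The AP-2 site was searched as GCCNNNGGC, which can overlap a GC box. Capitals mark the matches.
Krt7: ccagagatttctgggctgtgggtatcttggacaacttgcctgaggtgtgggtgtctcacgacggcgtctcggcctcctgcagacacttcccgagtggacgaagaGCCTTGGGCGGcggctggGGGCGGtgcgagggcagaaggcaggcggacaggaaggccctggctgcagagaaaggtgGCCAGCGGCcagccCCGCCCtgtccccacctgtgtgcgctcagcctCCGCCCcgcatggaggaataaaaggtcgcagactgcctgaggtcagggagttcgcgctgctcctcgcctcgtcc
Krt8: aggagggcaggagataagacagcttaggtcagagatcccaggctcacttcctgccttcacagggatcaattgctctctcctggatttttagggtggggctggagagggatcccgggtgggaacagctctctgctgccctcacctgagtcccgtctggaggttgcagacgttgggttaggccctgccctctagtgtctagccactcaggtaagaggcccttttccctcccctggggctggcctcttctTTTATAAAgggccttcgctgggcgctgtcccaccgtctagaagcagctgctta
Krt18: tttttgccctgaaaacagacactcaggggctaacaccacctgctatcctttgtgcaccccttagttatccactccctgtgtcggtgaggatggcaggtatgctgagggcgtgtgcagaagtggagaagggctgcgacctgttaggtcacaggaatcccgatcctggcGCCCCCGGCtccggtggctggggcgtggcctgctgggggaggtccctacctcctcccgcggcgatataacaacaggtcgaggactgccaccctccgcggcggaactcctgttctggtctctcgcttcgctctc

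The Krt7 window held 4 GC boxes and 2 AP-2 matches, the Krt8 window 2 overlapping TATA matches, and the Krt18 window 1 AP-2 match. Of 32851 RefSeq promoter windows of this length, 35.7% held a GC box, 16.6% an AP-2 match, 13.6% a TATA match and 7.81% an AP-1 match. The Krt5 window held none of the 4. A match describes letters only.

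Of the 44 other keratin genes, 37 stayed under 1 FPKM in every library and 4 were tested (Krt10, Krt16, Krt17 and Krt23), with 0 called. Krt17, a type I keratin of basal and stressed epithelium, stood at 1.03 and 21.5 FPKM (proximal 2 and 3), against 2.18 and 17.0 FPKM (distal 2 and 3), close to the pattern of its relative Krt14. Krt23 stood at 0.892 and 11.1 FPKM in proximal libraries, against 0.513 and 1.47 FPKM in distal libraries. Krt10, of differentiating epidermis, ran the other way by number, at 4.82 and 1.90 FPKM (proximal 2 and 3), against 4.02 and 1.44 FPKM (distal 2 and 3). Krt16 did not exceed 2.28 FPKM. Krt20, a keratin of superficial urothelium, did not exceed 0.609 FPKM in any library.

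Of 16 general epithelial markers, 12 were higher in number 3 in both regions, and of the 13 tested 10 were (25.5% of all tested genes). The 4 exceptions were Ehf, Grhl2, Prom1 and Spint2, and Krt8 and Krt18 are among the 12. Epcam stood at 3.89 and 30.1 FPKM (proximal 2 and 3), against 2.97 and 7.40 FPKM (distal 2 and 3), and the cell adhesion gene Cdh1 at 3.99 and 23.1 FPKM, against 0.927 and 7.14 FPKM. By region, all 13 tested had a log2 difference above 0 (60.3% of tested genes), with a median of 1.23 (0.09 over all tested genes) and 0 called; Ehf and Elf3 passed the filter through proximal libraries alone. Summed without Krt8 and Krt18, the 14 other markers gave 122 and 286 FPKM in proximal libraries, against 81.4 and 117 FPKM in distal libraries. Of these sums Prom1 made up 77.2 and 38.1 FPKM in proximal libraries, against 50.6 and 55.7 FPKM in distal libraries. Cd24a, which encodes the CD24 used to exclude cells from the sort, stood at 8.06 and 54.6 FPKM in proximal libraries, against 9.64 and 19.1 FPKM in distal libraries. Per Krt18 it was 0.865 and 0.852 in proximal libraries, against 0.796 and 0.819 in distal libraries, a nearly constant ratio that was picked after its values were seen. Per Epcam, Cd24a was not constant, at 2.07 and 1.81 in proximal libraries, against 3.24 and 2.58 in distal libraries. The part that epithelial cells had in the keratin values was not tested.

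Markers of single epithelial types were compared to see which type the keratins resemble. Among 9 markers of proximal duct and urethral epithelium 7 were tested and 0 called. All 7 had a log2 difference above 0 (60.3% of tested genes) and 5 did not overlap between regions (12.9% of tested genes). Of the 7, Krt4, Krt7 and Psca passed the filter through proximal libraries alone and had to be higher there to be tested, and the median, 2.79, was the value of Krt4, so these counts support nothing beyond the single values. Psca, a surface protein of proximal duct and urethral cells, stood at 15.4 and 65.7 FPKM (proximal 2 and 3), against a listed 0 in distal 2 and 0.0441 FPKM in distal 3. Clusterin (Clu) stood at 54.9 and 203 FPKM in proximal libraries, against 5.15 and 10.9 FPKM in distal libraries. The adjusted p was 0.493 for Psca and 0.704 for Clu (limma). The sum of the 6 markers other than keratins was 83.0 and 376 FPKM in proximal libraries, against 14.6 and 33.0 FPKM in distal libraries.

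The uroplakins, plaque proteins of the bladder surface, had unequal levels. Upk1b was the highest of the 4 on the urothelial list, at 6.10 and 3.33 FPKM in proximal libraries, against 2.09 and 2.55 FPKM in distal libraries. Upk2 and Upk3a stood at 0.158 and 0.203 FPKM and at 0.0786 and 0.151 FPKM in proximal libraries, and both were listed at 0 in distal libraries. Upk1a stood at 1.51 and 2.83 FPKM in proximal libraries, against 0.206 and 0.473 FPKM in distal libraries, a log2 difference of 1.22 ± 0.41 (SE, adjusted p = 0.99991, limma). Of the 10 urothelial markers 6 were tested, and 0 were called. All 6, Krt7 and Krt19 among them, had a log2 difference above 0 (60.3% of tested genes) and no overlap between regions (12.9% of tested genes), but Krt7, Upk1a and Foxa1 passed the filter through proximal libraries alone. The 8 of them that are not members summed to 12.1 and 12.8 FPKM in proximal libraries, against 5.13 and 5.17 FPKM in distal libraries.

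Markers of basal and luminal prostate cells gave 0 calls. Trp63, the regulator that defines basal cells, did not exceed 0.556 FPKM in any library. Of 10 basal markers 6 were tested, with a median log2 difference of 0.31 and 0 called, and the 7 that are not members summed to 2.44 and 28.9 FPKM (proximal 2 and 3), against 2.94 and 20.9 FPKM (distal 2 and 3). Of these sums the keratin Krt17 alone made up 1.03 and 21.5 FPKM in proximal libraries, against 2.18 and 17.0 FPKM in distal libraries. Of 12 luminal markers 9 were tested, with a median of 0.54 and 0 called. Foxa1 and Msmb passed the filter through proximal libraries alone and had to be higher there to be tested. The secretory gene Pbsn (probasin) stood at 73.7 and 236 FPKM in proximal libraries, against 98.6 and 137 FPKM in distal libraries. Defb50 stood at 17.9 and 31.5 FPKM in proximal libraries, against 6.44 and 6.77 FPKM in distal libraries, and Msmb at 1.76 and 3.34 FPKM, against a listed 0 in both. Pbsn per Krt18 was 7.91 and 3.69 in proximal 2 and proximal 3, against 8.13 and 5.89 in distal 2 and distal 3, so it did not keep step with Krt18 as Cd24a did. The 10 luminal markers that are not members summed to 124 and 363 FPKM in proximal libraries, against 195 and 266 FPKM in distal libraries.

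Mesothelial cells also carry Krt7, Krt8, Krt18 and Krt19, and several of their other defining genes were at or near 0. Msln was listed at 0 in 3 libraries and stood at 0.0187 FPKM in proximal 3, Lrrn4 and Gpm6a were listed at 0 in all 4, and Upk3b did not exceed 0.395 FPKM. Wt1, also on that list, stood at 20.9 and 16.7 FPKM in proximal libraries and at 32.3 and 22.0 FPKM in distal libraries, and so did not follow the keratins. Seminal vesicle secretory genes summed to at most 0.734 FPKM in any library. Among 12 genes of squamous differentiation 5 were tested and 0 called; Sprr1a stood at 29.9 and 197 FPKM (proximal 2 and 3), against 12.0 and 23.0 FPKM (distal 2 and 3), and did not overlap between regions. Krtdap, of keratinocyte differentiation, stood at 2.38 and 2.47 FPKM in proximal libraries, against 9.62 and 4.998 FPKM in distal libraries, a log2 difference of -1.22 ± 0.47 (SE, adjusted p = 0.99991, limma). Sbsn was also lower in both proximal libraries, so 1 gene of this list lay above and 2 lay below without overlap. Krt1 did not exceed 0.102 FPKM.

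**Figure D4:**
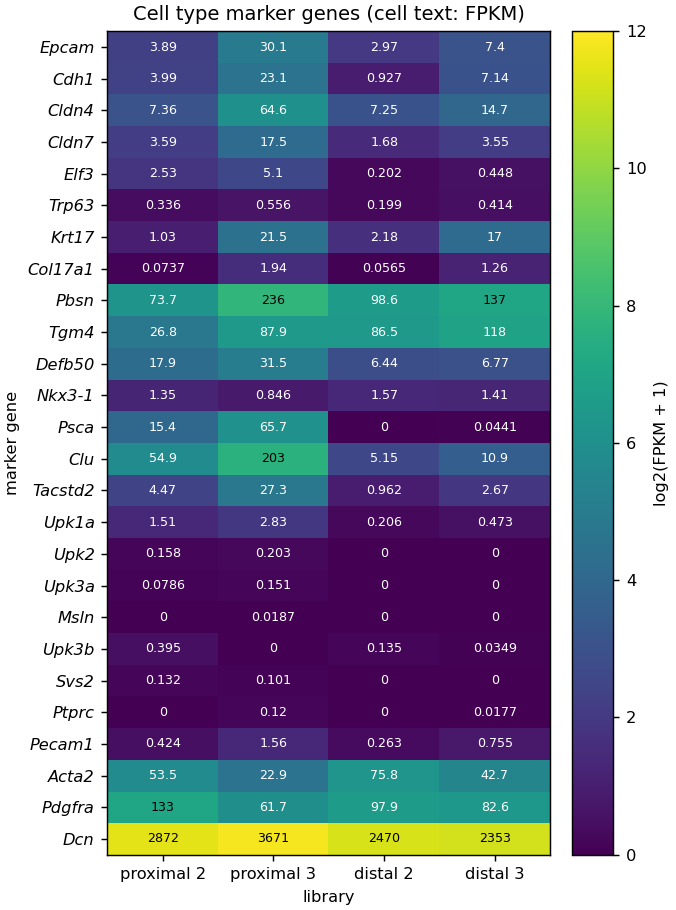
FPKM of cell type marker genes in proximal 2, proximal 3, distal 2 and distal 3; colour is log2(FPKM + 1) and the text in each cell is FPKM. Epcam, Cdh1 and Cldn4 are highest in proximal 3, Psca and Clu are higher in both proximal libraries than in both distal ones, Upk2, Upk3a and Msln are near 0 in all, and the stromal gene Dcn is the highest gene shown in all, with both proximal libraries above both distal ones.

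Stromal genes were abundant: Dcn (decorin) stood at 2872 and 3671 FPKM in proximal libraries and 2470 and 2353 FPKM in distal libraries. The 7 fibroblast markers summed to 5356 and 5837 FPKM in proximal libraries, against 5328 and 4714 FPKM in distal libraries. Only 2 of the 7 had a log2 difference above 0, and 1 (Dcn) lay above and 1 (Ly6a) below without overlap. Ly6a stood at 687 and 738 FPKM in proximal libraries, against 1016 and 868 FPKM in distal libraries. Leukocyte markers summed to at most 2.36 FPKM, and endothelial markers to at most 9.49 FPKM. Smooth muscle markers summed to 354 and 191 FPKM (proximal 2 and 3), against 389 and 270 FPKM (distal 2 and 3), lower in number 3 where the keratins were higher. Neuroendocrine genes summed to at most 10.6 FPKM. In these lists 0 genes were called.

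Among 22 partners of keratin filaments 10 were tested and 0 called, with a median log2 difference of 0.32. Periplakin (Ppl), which links filaments to the cell envelope, stood at 6.28 and 8.98 FPKM in proximal libraries, against 0.654 and 1.08 FPKM in distal libraries, a log2 difference of 2.20 ± 0.43 (SE, adjusted p = 0.704, limma). The desmosomal plaque gene Pkp2 stood at 19.6 and 17.2 FPKM in proximal libraries, against 10.8 and 10.6 FPKM in distal libraries, and the cytolinker Plec at 18.8 and 17.5 FPKM, against 54.6 and 23.9 FPKM. Desmoplakin (Dsp), the main anchor of keratins at desmosomes, did not exceed 1.04 FPKM. Among 20 epithelial transcription factors 10 were tested and 0 called, with a median of 0.15. Ehf, Elf3 and Foxa1 passed the filter through proximal libraries alone and had to be higher there to be tested. Elf3 stood at 2.53 and 5.10 FPKM in proximal libraries, against 0.202 and 0.448 FPKM in distal libraries, a log2 difference of 1.81 ± 0.45 (SE, adjusted p = 0.906, limma). Among 13 other intermediate filament genes 9 were tested and 0 called, with a median of -0.15.

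The 5 genes whose pattern over the 4 libraries was most like the mean of the tested members were Gdnf, Cldn7, Flnc, Krt23 and Tgfb2. Likeness was the root mean square distance between centred log2(FPKM + 1) profiles, which was 0.09 for Gdnf, 0.21 for Cldn7, 0.23 for Flnc, 0.25 for Krt23 and 0.26 for Tgfb2. Among members the distance to their own mean was 0.19 for Krt8 and up to 0.88 for Krt14 and Krt4. Gdnf, which encodes a secreted neurotrophic factor, stood at 7.44 and 37.5 FPKM (proximal 2 and 3), against 3.34 and 7.05 FPKM (distal 2 and 3). With 4 libraries a close profile is a description only.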

How the data were processed

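Sorted stromal cells of 4 samples were sequenced after SMART-Seq v4 amplification with random and oligo-dT primers, per the labels' protocols, which do not describe a strand-marking step. The build mm10 and the tools Cufflinks 0.0.6, TopHat2 0.6 and bcl2fastq 1.8.3 are listed, per the submitters' processing notes, with no role or order. For each transcript the authors deposited FPKM, its 2 bounds and a coverage signal, which is the read depth over the transcript, per the file headers. They hold no counts, and total fragments are not given. The median coverage per FPKM was 5.22 (proximal 2), 5.38 (proximal 3), 5.68 (distal 2) and 6.34 (distal 3). PCR copies are not independent molecules, so the bounds cover error within a library only.

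Of 63241 deposited transcripts 54847 (86.73%, holding 96.16% of FPKM) were named by position against GENCODE M21, and FPKM was summed per gene; each of the 9 keratins had 1 transcript above 0. Between 10101 and 11393 genes reached 1 FPKM in a library. Genes with a failed or capped estimate were left out, and genes with at least 1 FPKM in at least 2 libraries were tested with limma 3.58.1 in R 4.3.3 on log2(FPKM + 1), with region as the only term, a mean trend, two-sided tests and a threshold of 0.05. The code of the fit was tested on simulated data with known changes and low noise, which does not measure its power on these libraries. Sums and ratios were made in Python 3.11.15 (pandas 2.3.3, numpy 2.4.6), and plots with matplotlib 3.10.9. Alternatives were other pseudocounts, filters, scalings and naming, the library number as a block, and leaving out each library. The rule was to name the 9 members, called genes of the lists or else those with the largest differences, and the 5 genes most alike. Some of those with the largest differences are not named. Epcam, Cdh1, Cldn4, Cd24a, Krt17, Krt20, Pbsn, Upk1b, Upk2, Upk3a, Foxa1, Ehf and Grhl2 were chosen from the lists after their values were seen. So were Spint2, Sbsn, Trp63, Wt1, Msln, Upk3b, Lrrn4, Gpm6a, Prom1, Dsp, Vim and Krt1. The members and lists were chosen with earlier results of these data known. The type II coding window is not reported here.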

Additional observations from a re-analysis of the deposited data

How the results depend on the processing

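With region as the only term 0 genes were called, and the alternatives without a block and with all 4 libraries also gave 0 calls. Leaving out 1 library gave 0 to 40 calls (40 without distal replicate 2, 26 without distal replicate 3), 0 of them among the 9 keratins; such fits mix region with number, and the lone library is assumed to vary like the others. With the replicate block 451 genes were called, among them Krt15 (2.03), Krt7 (3.33), Krt19 (2.32) and Krt4 (2.79), higher in proximal as were 2.71% of tested genes. Krt4 and Krt7 had passed the filter through proximal libraries alone. Deviations of same-numbered libraries from their region means correlated across genes (r = 0.815), but with 2 pairs and no label on what a number marks the block stays an alternative. The log2 difference of Krt14 was -0.063 under quantile normalization and -0.043 under median ratio scaling; these moved the median of all genes to -0.03 and -0.05, from 0.09. With 1 library left out, differences ranged from -0.30 to 1.68 for Krt5, -1.33 to 1.52 for Krt14, -0.79 to 1.87 for Krt18, 0.81 to 3.25 for Krt15, 2.07 to 4.59 for Krt7, 0.20 to 3.07 for Krt8, 0.94 to 3.71 for Krt19 and 2.42 to 3.15 for Krt4. Krt13 gave no value under the stricter filter, quantile normalization or naming by span and length, Krt7 none under that naming, and Krt4 and Krt5 none under the stricter filter. The causes were not tested.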
